A study of Mus musculus with 16 samples.

Results

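A set of 10 genes that mark heat-producing fat cells was followed in RNA-Seq profiles of mouse mammary adipose tissue: Ucp1, Cidea, Cox8b, Cox7a1, Ppargc1a, Prdm16, Dio2, Elovl3, Cpt1b and Fabp3. They were chosen by name, as genes known from brown and beige fat, and all 10 were among the 23179 genes of the table and among the 21218 that had enough reads to be tested. The tissue was the fat pad on the side without a tumor, taken from wild-type female C57BL/6N mice (C57BL/6NCrl in the methods of the study) in 4 groups of 4 libraries. CON-LFD mice ate the control diet, D12450J, throughout. All other mice were first made obese on a 60% high-fat diet (D12492). DIO-HFD mice stayed on that diet, DIO-LFD mice lost weight on low-fat food alone, and DIO-VSG mice underwent vertical sleeve gastrectomy, the removal of most of the stomach, and ate low-fat food afterwards. Mice without gastrectomy had a sham operation, and every mouse had E0771 mammary cancer cells injected into the opposite fat pad 22 weeks after the first diet assignment. All groups, the controls included, therefore carried a tumor. The study compared the groups to ask how obesity, and weight loss by diet or surgery, act on gene expression in this fat pad.

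White fat cells store energy in 1 large lipid droplet, whereas brown and beige fat cells hold many small droplets and many mitochondria and burn fuel as heat. Cold and other sympathetic signals reach them through beta-adrenergic receptors and cyclic AMP, and the uncoupling protein UCP1 then lets protons return across the inner mitochondrial membrane without making ATP. The subcutaneous and mammary fat of mice is known for beige cells that appear among white ones.

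Each library held between 46907377 and 57610899 reads counted on genes. The levels below are normalized counts, that is, reads divided by a size factor of each library, and differences are in units of log2(normalized count + 1). Adipocyte markers were abundant in the labelled fat tissue: 0 of 18 were at 0 reads in any library, and Fabp4, a fatty acid carrier of fat cells, lay between 187264 normalized counts in DIO-HFD replicate 1 and 724048 in DIO-LFD replicate 1. DIO-HFD replicate 1 stood apart from the others in its low adipocyte markers, with a marker score (the mean over the list of log2 values, each gene centred on its mean over the 16 libraries) of -1.31 against -0.39 to 0.59 in the other 15 libraries. In whole tissue, fewer cells of a type and less RNA per cell cannot be told apart, which holds for all levels that follow.

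Intervals below are 95% confidence intervals, and adjusted P values are from limma over all genes tested. Ucp1 encodes the uncoupling protein itself (chr8:83290352-83298452, plus strand, protein coding; GRCm38 throughout). In CON-LFD, replicates 1 to 4 had 2182, 24043, 292 and 1343 normalized counts, and in DIO-HFD they had 4.63, 226, 25.1 and 29.5. In DIO-LFD the values were 682, 2098, 873 and 114, and in DIO-VSG they were 72.6, 15.3, 21836 and 4658. All 4 DIO-HFD libraries were below all 4 CON-LFD libraries, whereas DIO-LFD replicate 4 and DIO-VSG replicates 1 and 2 lay inside the DIO-HFD range. The highest library exceeded the lowest of the same group 82.2-fold in CON-LFD and 1428-fold in DIO-VSG, where replicates 3 and 4 were high and replicates 1 and 2 low. The difference was -6.07 (SE 2.03, interval -10.41 to -1.73, adjusted P = 0.254) for DIO-HFD against CON-LFD, 4.28 (SE 2.03, interval -0.06 to 8.62, adjusted P = 0.595) for DIO-LFD against DIO-HFD and 4.22 (SE 2.03, interval -0.12 to 8.56, adjusted P = 0.387) for DIO-VSG against DIO-HFD. Because the lowest library, DIO-HFD replicate 1, held only 5 reads of Ucp1, its level there is loosely set by counting alone.

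The start region of Ucp1 is shown because this gene had the largest differences of the 10 in the comparisons with DIO-HFD. It is the 300 bases from 250 before to 50 after the RefSeq start (RefSeq, GRCm38.p6, chr8:83290098-83290397, plus strand), and capitals mark the one match to AGGTCA, a half-site bound by nuclear receptors, at base 237 of the window.
Ucp1: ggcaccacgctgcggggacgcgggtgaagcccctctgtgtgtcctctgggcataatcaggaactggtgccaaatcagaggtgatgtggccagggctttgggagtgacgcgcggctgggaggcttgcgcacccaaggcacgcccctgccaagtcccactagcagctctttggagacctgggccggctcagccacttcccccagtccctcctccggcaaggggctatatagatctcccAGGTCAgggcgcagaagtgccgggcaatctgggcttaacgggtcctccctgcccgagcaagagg
Among 32851 RefSeq windows of the same length, 16.3% held AGGTCA on either strand, so a match of this kind is common and marks letters, not a working site.

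Cidea, which encodes a lipid droplet protein abundant in brown fat, differed between groups with the least overlap. Its levels were 2916, 14873, 558 and 1040.0 normalized counts in CON-LFD replicates 1 to 4 and 43.5, 242, 111 and 209 in DIO-HFD. They were 1495, 3432, 861 and 620.1 in DIO-LFD and 486, 286, 7266 and 2863 in DIO-VSG. Every library of the other 3 groups lay above the highest DIO-HFD library. The differences were -4.15 (SE 1.10, interval -6.51 to -1.79, adjusted P = 0.213) for DIO-HFD against CON-LFD, 3.35 (SE 1.10, interval 0.99 to 5.71, adjusted P = 0.463) for DIO-LFD against DIO-HFD and 3.37 (SE 1.10, interval 1.01 to 5.73, adjusted P = 0.275) for DIO-VSG against DIO-HFD.

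Cox8b and Cox7a1 encode subunits of cytochrome c oxidase, the last complex of the respiratory chain, in the isoforms found in heart, skeletal muscle and brown fat. Cox8b (chr7:140898945-140900446, minus strand, protein coding) had 1649.9, 5662, 772 and 982 normalized counts in CON-LFD replicates 1 to 4 and 97.2, 172, 241 and 327 in DIO-HFD. It had 328, 1920.3, 1395 and 1213 in DIO-LFD and 569, 349.9, 3007 and 1490.5 in DIO-VSG. DIO-HFD again lay below every other library, but only just in DIO-LFD, where replicate 1 reached 327.5 against 326.9 in DIO-HFD replicate 4. The differences were -3.09 (SE 0.76, interval -4.71 to -1.47, adjusted P = 0.182) for DIO-HFD against CON-LFD, 2.41 (SE 0.76, interval 0.79 to 4.03, adjusted P = 0.456) for DIO-LFD against DIO-HFD and 2.35 (SE 0.76, interval 0.72 to 3.97, adjusted P = 0.274) for DIO-VSG against DIO-HFD.

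Cox7a1 (chr7:30184144-30186078, plus strand, protein coding) had 319, 1688, 58.1 and 139 normalized counts in CON-LFD replicates 1 to 4 and 25.0, 58.7, 75.3 and 41.0 in DIO-HFD. It had 90.6, 326, 129.6 and 210.4 in DIO-LFD and 56, 64.8, 762 and 365 in DIO-VSG. DIO-LFD lay wholly above DIO-HFD, while CON-LFD replicate 3 and DIO-VSG replicates 1 and 2 fell inside the DIO-HFD range. The differences were -2.45 (SE 0.97, interval -4.53 to -0.38, adjusted P = 0.313) for DIO-HFD against CON-LFD, 1.85 for DIO-LFD against DIO-HFD and 1.93 for DIO-VSG against DIO-HFD.

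The start regions of Cox8b and Dio2 are given here because they were the members whose windows held TATAAA, the core of a TATA box (minus strand of chr7:140900397-140900696 and of chr12:90738989-90739288, 300 bases each). Capitals mark TATAAA, at base 255 in Cox8b and base 221 in Dio2, and TGACGTCA, the cyclic AMP response element, at base 156 in Dio2.
Cox8b: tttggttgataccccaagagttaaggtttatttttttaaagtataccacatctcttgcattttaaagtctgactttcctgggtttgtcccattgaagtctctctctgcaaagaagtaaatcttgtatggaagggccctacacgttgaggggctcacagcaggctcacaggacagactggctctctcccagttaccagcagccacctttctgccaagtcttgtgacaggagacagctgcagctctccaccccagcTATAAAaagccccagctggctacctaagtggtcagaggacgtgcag
Dio2: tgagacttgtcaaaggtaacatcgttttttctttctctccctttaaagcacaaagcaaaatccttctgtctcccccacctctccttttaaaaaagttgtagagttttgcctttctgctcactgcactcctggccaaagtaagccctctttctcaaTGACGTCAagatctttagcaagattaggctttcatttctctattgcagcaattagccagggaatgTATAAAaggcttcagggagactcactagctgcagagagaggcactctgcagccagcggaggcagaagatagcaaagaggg
TATAAA occurred in 13.6% of all windows and TGACGTCA in 1.79%. Of the 10 members, 7 had a window in the table, and the motifs searched on both strands were AGGTCA, its extended form TCAAGGTCA (0.423% of windows), TATAAA, TGACGTCA and GGGCGG, the GC box (35.7%). The windows of Cox7a1, Ppargc1a and Fabp3 held none of these letters, and that of Prdm16 held GGGCGG once, at base 31. Cidea, Elovl3 and Cpt1b were not matched. The annotated start of Dio2 in GENCODE, at base 90738438, lies inside the gene as RefSeq draws it, so the window depends on the annotation.

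Ppargc1a and Prdm16 encode regulators. The coactivator PGC-1alpha, from Ppargc1a, drives the making of mitochondria, and PRDM16 is a transcriptional regulator that sets brown and beige cell identity. Ppargc1a (chr5:51454250-51567726, minus strand) had 597, 761, 408 and 479 normalized counts in CON-LFD replicates 1 to 4 and 165, 372, 269.6 and 421 in DIO-HFD. It had 342, 310.5, 500.3 and 442 in DIO-LFD and 535, 259.9, 817 and 388 in DIO-VSG. The ranges overlapped in every pair of groups, and of the DIO-HFD libraries only replicate 4 reached into the CON-LFD range. The difference was -0.92 (SE 0.35, interval -1.66 to -0.17, adjusted P = 0.297) for DIO-HFD against CON-LFD, and it was 0.44 for DIO-LFD and 0.66 for DIO-VSG, each against DIO-HFD. Without DIO-HFD replicate 1 these last values were 0.17 and 0.40 for Ppargc1a.

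Prdm16 (chr4:154316125-154636873, minus strand) had the smallest difference of the members in DIO-HFD against CON-LFD and in DIO-VSG against DIO-HFD. It had 1306, 1267, 577 and 1327 normalized counts in CON-LFD replicates 1 to 4 and 414, 1098, 1018 and 1047 in DIO-HFD. It had 1430.3, 1053, 1117 and 1021 in DIO-LFD and 1057, 494, 1051 and 1316 in DIO-VSG. In each of CON-LFD, DIO-HFD and DIO-VSG 1 library was low, replicates 3, 1 and 2 in that order, and the other 3 were between 1018 and 1327. The differences were -0.35 (SE 0.37, interval -1.13 to 0.44, adjusted P = 0.741) for DIO-HFD against CON-LFD, 0.46 for DIO-LFD against DIO-HFD and 0.14 for DIO-VSG against DIO-HFD. The interval of the first reaches from a fall of over 1 unit to a rise, so a change of the size seen in Ppargc1a is not excluded. DIO-HFD replicate 1, the low library of its group, was also the one with low adipocyte markers, and without it the DIO-HFD against CON-LFD difference of Prdm16 was -0.01 and that of DIO-LFD against DIO-HFD 0.12, and that of DIO-VSG against DIO-HFD turned to -0.19. Without CON-LFD replicate 3 the first was -0.64.

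Dio2 encodes the deiodinase that makes active thyroid hormone inside the cell (chr12:90724552-90738438, minus strand). Its levels were 323, 431, 48.9 and 100.5 normalized counts in CON-LFD replicates 1 to 4 and 39.8, 62.0, 25.1 and 40.1 in DIO-HFD. They were 51.3, 148, 60.0 and 129 in DIO-LFD and 30.1, 32.4, 1098 and 103 in DIO-VSG. CON-LFD replicates 1 and 2 and DIO-VSG replicate 3 stood above all other libraries. The differences were -2.0 (SE 0.97, interval -4.07 to 0.07, adjusted P = 0.403) for DIO-HFD against CON-LFD, 1.12 for DIO-LFD against DIO-HFD and 1.36 for DIO-VSG against DIO-HFD. The last of these was 0.22 when DIO-VSG replicate 3 was left out.

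Elovl3, Cpt1b and Fabp3 act on fatty acids. Elovl3 encodes an elongase of very long chain fatty acids (chr19:46131897-46135694, plus strand), with 175, 2104, 15.7 and 122 normalized counts in CON-LFD replicates 1 to 4 and 2.78, 39.8, 32.7 and 16.4 in DIO-HFD. It had 187, 281, 49.6 and 55.2 in DIO-LFD and 7.26, 27.0, 1653 and 392 in DIO-VSG. DIO-LFD lay wholly above DIO-HFD, and CON-LFD replicate 3 and DIO-VSG replicates 1 and 2 did not. DIO-HFD replicate 1 held 3 reads, the floor at which a level is not told from 0. The differences were -3.26 (SE 1.61, interval -6.71 to 0.19, adjusted P = 0.413) for DIO-HFD against CON-LFD, 2.67 for DIO-LFD against DIO-HFD and 2.67 for DIO-VSG against DIO-HFD.

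Cpt1b encodes the muscle form of carnitine palmitoyltransferase 1, which admits fatty acids to the mitochondrion (chr15:89416405-89425863, minus strand). Its levels were 1745, 10852, 408 and 813 normalized counts in CON-LFD replicates 1 to 4 and 265, 399, 682 and 356 in DIO-HFD. They were 990.3, 1584, 591 and 851 in DIO-LFD and 375, 288, 5544 and 1728 in DIO-VSG. All pairs of groups overlapped, and CON-LFD replicate 2 and DIO-VSG replicate 3 were far above the rest. The differences were -1.98 (SE 0.97, interval -4.05 to 0.09, adjusted P = 0.407) for DIO-HFD against CON-LFD, 1.23 for DIO-LFD against DIO-HFD and 1.33 for DIO-VSG against DIO-HFD.

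Fabp3 encodes the heart-type fatty acid carrier (chr4:130308595-130315463, plus strand). Its levels were 328, 6251, 48.0 and 323 normalized counts in CON-LFD replicates 1 to 4 and 3.70, 42.1, 21.8 and 18 in DIO-HFD. They were 209, 222, 42.9 and 76.6 in DIO-LFD and 10.4, 16.2, 2177 and 503 in DIO-VSG. DIO-HFD lay wholly below CON-LFD and DIO-LFD, and DIO-VSG replicates 1 and 2, at 10.4 and 16.2, lay among the DIO-HFD libraries. The differences were -4.62 (SE 1.64, interval -8.13 to -1.12, adjusted P = 0.266) for DIO-HFD against CON-LFD, 2.71 (SE 1.64, interval -0.80 to 6.21, adjusted P = 0.731) for DIO-LFD against DIO-HFD and 2.81 (SE 1.64, interval -0.69 to 6.32, adjusted P = 0.42) for DIO-VSG against DIO-HFD.

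**Figure D1:**
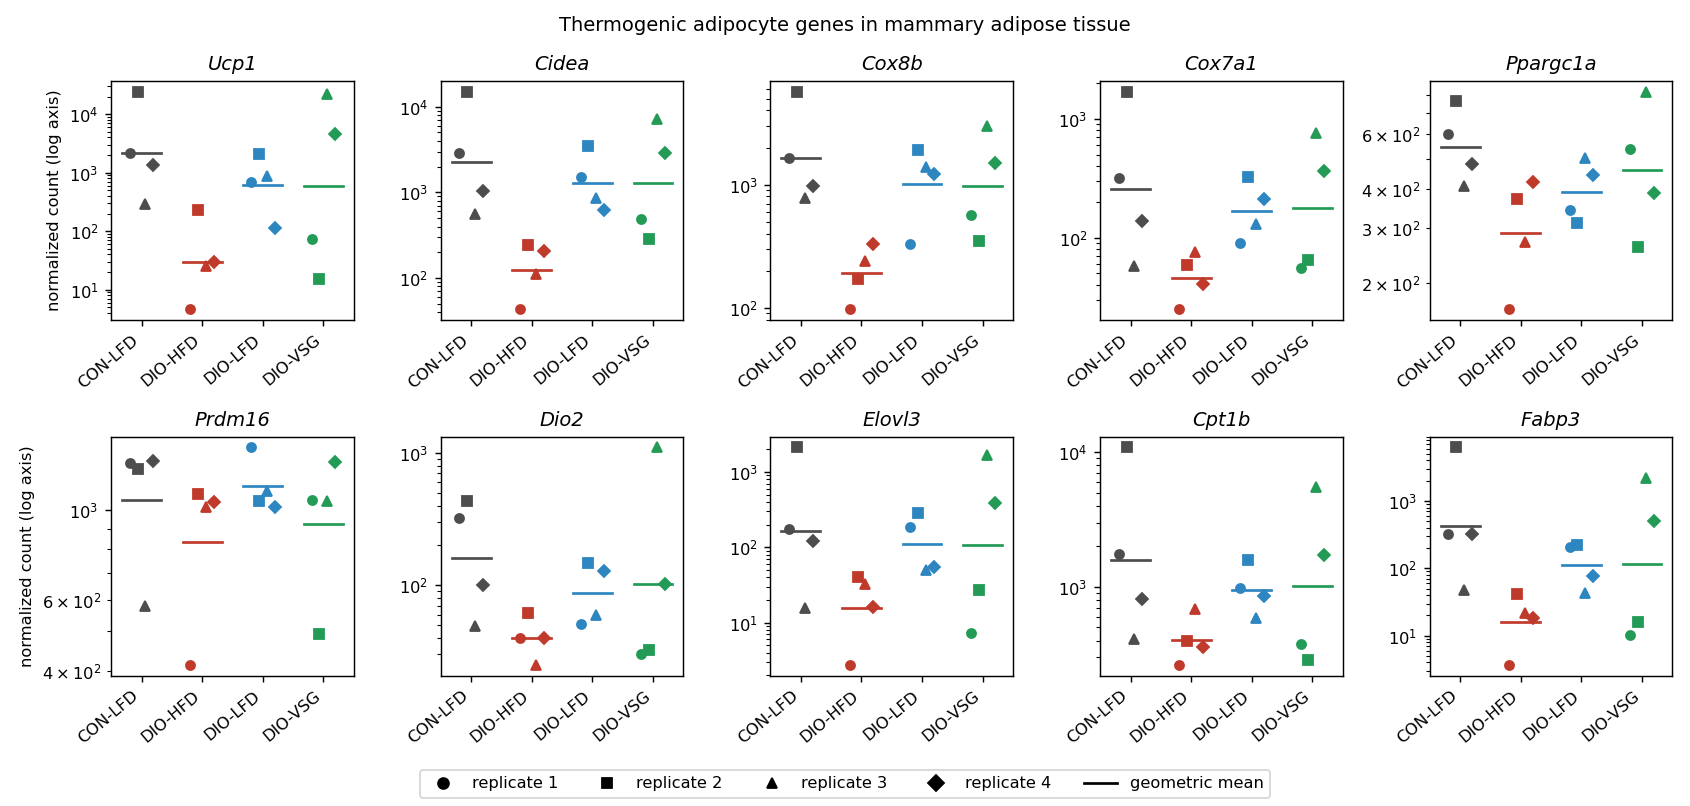
Normalized count (log axis) of each of the 10 genes in 16 libraries, by group; the marker shape gives the replicate and the bar the geometric mean of 4 libraries. DIO-HFD has the lowest bar in every panel, and in CON-LFD and DIO-VSG 1 or 2 libraries stand far above the others for most genes.

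Between genes, levels were compared per kilobase of exon. In CON-LFD the order of the mean levels was Cox8b with 6296 normalized counts per kb, Cidea with 4347, Ucp1 with 4257, Fabp3 with 2111, Cox7a1 with 1030 and Cpt1b with 1024, followed by Elovl3 with 306, Prdm16 with 120.1, Ppargc1a with 85.2 and Dio2 with 38.9. In DIO-HFD, Cox8b again led with 581, before Cidea with 136 and Cpt1b with 126, whereas Ucp1 stood at 43.5 and Fabp3 at 26.0, with only Elovl3 and Dio2 lower. The mean of Prdm16 in DIO-HFD, 95.9 per kb (SD 34.6), was above that of Ucp1. The SD of Ucp1 there was 63.3 per kb, so they did not differ beyond their spread. In CON-LFD the SD of each of the first 7 genes exceeded its mean, so neighbours among them did not differ beyond their spread. Without CON-LFD replicate 2 the mean was 3152 for Cox8b, 1349 for Cidea, 778 for Ucp1, 321 for Cox7a1, 293 for Cpt1b, 283 for Fabp3 and 52.8 for Elovl3, which put Elovl3 below Prdm16 and Ppargc1a.

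The first comparison set obese mice, still on the high-fat diet, against never-obese controls on the control diet. Obesity and the current diet cannot be told apart in it. In DIO-HFD against CON-LFD, all 10 members had a difference below 0, with a median of -2.77 against 0.02 over all genes tested. The test was the moderated test of limma on all 16 libraries, two-sided, with P values adjusted over the 21218 genes by the Benjamini-Hochberg procedure. None of the 10 members passed an adjusted P of 0.05 (0.0377% of all genes did, 8 in number), so none is called changed, and limma-voom on the recovered reads also called 0. The lowest adjusted P values were 0.182 for Cox8b and 0.213 for Cidea, and that of Ucp1 was 0.254. At an unadjusted P below 0.05, 6 of 10 were lower (Ucp1, Cidea, Cox8b, Cox7a1, Ppargc1a and Fabp3) and 0 higher, where 7.66% of all genes were lower and 5.23% higher. The groups did not overlap, with DIO-HFD lower, for 4 of 10 members (Ucp1, Cidea, Cox8b and Fabp3), against 3% of all genes. Among the 21218 differences, those of Ucp1, Fabp3 and Cidea had ranks 4, 9 and 12 from the lowest. The median was -1.79 when CON-LFD replicate 2 was left out, and all 10 differences stayed below 0, at -1.55 for Cox7a1, -2.04 for Elovl3 and -1.06 for Cpt1b.

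A pair of further comparisons set the groups that lost weight by diet or after surgery against DIO-HFD, and both used the same DIO-HFD libraries. Both of those groups had also changed to low-fat food. Weight loss, the change of diet and, in DIO-VSG, surgery cannot be told apart here. In DIO-LFD against DIO-HFD, all 10 members were above 0, with a median of 2.13 against 0.01 over all genes. On the deposited scale, which compresses low levels, the difference was 2.75 for Ucp1, 1.28 for Fabp3 and 1.25 for Elovl3. By limma 0 of 10 members and 0% of all genes passed the adjusted threshold, and limma-voom called 0 members. At an unadjusted P below 0.05, Cidea and Cox8b were higher and 0 members lower, where 5.37% of all genes were higher and 3.16% lower. The groups did not overlap for 5 of 10 members (Cidea, Cox8b, Cox7a1, Elovl3 and Fabp3), against 3.01% of all genes.

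In DIO-VSG against DIO-HFD, all 10 members were above 0 as well, with a median of 2.14 against 0.02, although Prdm16 was below 0 without DIO-HFD replicate 1 or DIO-VSG replicate 4. By limma 0 of 10 members and 0% of all genes passed the adjusted threshold, and limma-voom called 0 members. At an unadjusted P below 0.05, Cidea and Cox8b were higher and 0 members lower, where 5.05% of all genes were higher and 8.12% lower. The groups did not overlap for the same 2 members, against 2.37% of all genes. Without DIO-VSG replicate 3 the median was 1.30, and the difference was 2.48 for Ucp1, 1.24 for Cox7a1, 0.39 for Ppargc1a, 1.37 for Elovl3, 0.51 for Cpt1b and 1.42 for Fabp3.

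**Figure D2:**
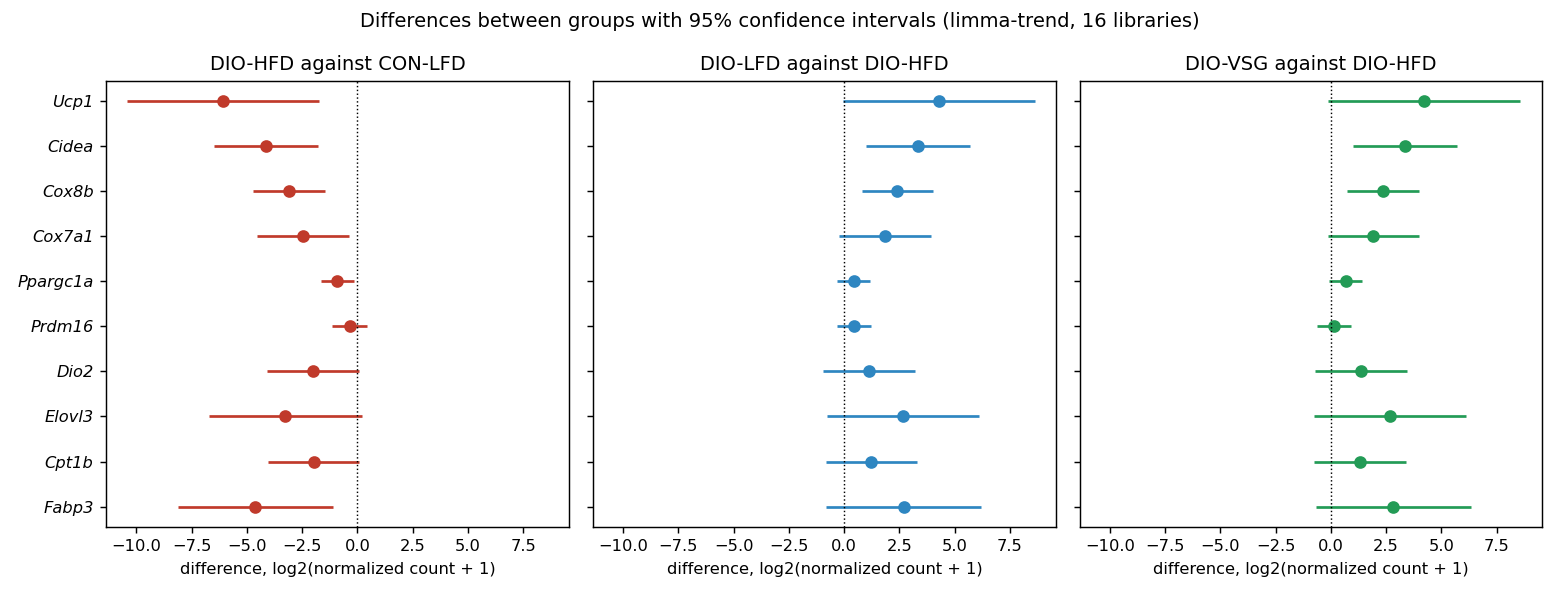
Differences in log2(normalized count + 1) with their 95% confidence intervals from limma-trend for the 10 genes in the 3 comparisons with DIO-HFD; the dotted line is 0. All points lie below 0 in DIO-HFD against CON-LFD and above 0 in the other panels, with intervals several units wide for Ucp1, Elovl3 and Fabp3.

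The wide intervals follow from the spread inside groups. Over the 4 groups the SD of Ucp1 was 3.11 log2 units, a spread exceeded by 23 of 21218 genes, and that of Fabp3 was 2.51 and of Elovl3 2.47. Ppargc1a, at 0.53, and Prdm16, at 0.55, were closer to the median gene, at 0.36. Weights that limma can give to single libraries (array weights) made 5 members pass in DIO-HFD against CON-LFD (Ucp1, Cidea, Cox8b, Cox7a1 and Fabp3), but 19.8% of all genes then passed as well. They made Cox8b pass in DIO-LFD against DIO-HFD, with 8.54% of all genes, and Ucp1, Cidea, Cox8b and Cox7a1 in DIO-VSG against DIO-HFD, with 17.6%. Those weights ran from 0.22 for DIO-HFD replicate 3 to 10.9 for DIO-HFD replicate 4, so the DIO-HFD level in that fit rested mostly on 1 library.

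The last 3 comparisons asked how far the groups that had lost weight stood from mice that were never obese, and from each other. In DIO-LFD against CON-LFD, 9 of 10 members were below 0, with a median of -0.72, and Prdm16 was at 0.11. By limma 0 members passed the adjusted threshold and 0 an unadjusted P below 0.05 (0.00471% and 6.26% of all genes), and limma-voom called 0. In DIO-VSG against CON-LFD all 10 were below 0, with a median of -0.65, and again 0 members passed either threshold in limma (0% and 17.8% of all genes) and 0 in limma-voom. The intervals of Ucp1 reached from -6.13 to 2.55 in DIO-LFD and from -6.19 to 2.49 in DIO-VSG, each against CON-LFD, so neither a return to the CON-LFD level nor a large remaining deficit is excluded. In DIO-VSG against DIO-LFD the differences ranged from -0.31 for Prdm16 to 0.24 for Dio2, with a median of 0.05. Here too 0 members passed either threshold (0% and 9.71% of all genes), and limma-voom called 0. The interval for Cidea in DIO-VSG against DIO-LFD was -2.34 to 2.38, so these data do not show that diet and surgery gave alike levels. The median of DIO-LFD against CON-LFD ran from -1.43 without CON-LFD replicate 3 to 0.01 without CON-LFD replicate 2, and that of DIO-VSG against DIO-LFD from -0.76 without DIO-VSG replicate 3 to 0.68 without DIO-VSG replicate 2. That of DIO-VSG against CON-LFD ran from -1.54 without DIO-VSG replicate 3 to -0.05 without DIO-VSG replicate 2.

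The members varied together from mouse to mouse. CON-LFD replicate 2 had the highest level of 7 of the 10 genes among all 16 libraries, DIO-VSG replicate 3 of 2 (Ppargc1a and Dio2) and DIO-LFD replicate 1 of Prdm16. DIO-HFD replicate 1 had the lowest level of 9, all but Dio2. The mean centred log2 level of the 10 members, their score, was 3.45 in CON-LFD replicate 2 and 2.96 in DIO-VSG replicate 3. Within DIO-VSG it was -1.35, -1.70, 2.96 and 1.40 in replicates 1 to 4, so that group held mice at both ends. In DIO-HFD it lay between -2.99 and -0.97, in DIO-LFD between -0.10 and 1.14 and in CON-LFD between -0.81 and 3.45. Across the 16 libraries, which share group differences, the median Pearson's r of a member with the other 9 was 0.93 for Fabp3, 0.92 for Cidea and 0.92 for Elovl3, and lowest for Prdm16, at 0.60. After the group means were taken out these medians were 0.91 for Fabp3 and 0.59 for Prdm16. The shared variation thus also held around the group means, pooled over the 4 groups. Correlations inside single groups were not computed.

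**Figure D3:**
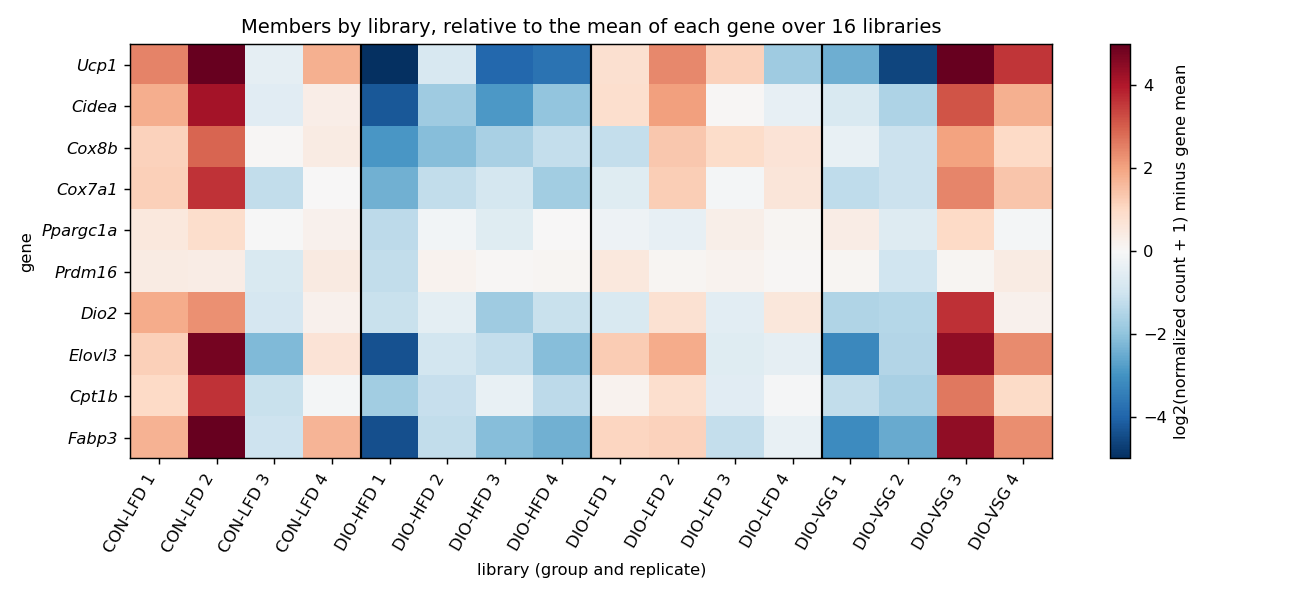
Level of the 10 genes (rows) in the 16 libraries (columns) as log2(normalized count + 1) minus the mean of each gene; black lines part the groups, red is above and blue below the mean, and colours saturate at 5 units. CON-LFD replicate 2 and DIO-VSG replicate 3 and 4 are red, DIO-HFD is mostly blue, and the rows of Ppargc1a and Prdm16 are pale.

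Related genes were read beside the members. Of 22 listed paralogs 20 were in the table and 18 were tested, with a median of -0.35 in DIO-HFD against CON-LFD and 6 lower at an unadjusted P below 0.05, where 7.66% of all genes were lower. These 6 were Ucp3 (-1.38), Cideb, Cox8a (-0.47), Cox7a2 (-0.49), Ppargc1b (-0.83) and Elovl6 (-3.12), a fatty acid elongase of lipid synthesis, and 0 of 18 passed the adjusted threshold. Cideb was near the floor of 3 reads in DIO-HFD, with 7.40, 1.11, 3.27 and 1.64 normalized counts, so no size is given for its difference. Ucp2, which encodes an uncoupling protein of many cell types, differed by -0.14, with 19023 normalized counts in DIO-HFD and 20092 in CON-LFD. Fabp4 differed by -0.38 and Cidec, the droplet protein of white fat, by -0.55. Of the rest, Cox7a2l, Mecom, Elovl1, Elovl5, Elovl7, Cpt1c and Fabp5 lay between -0.31 and 0.14, Elovl4 at -0.67, and Cpt1a, the liver form of the enzyme, at 0.22 against CON-LFD and -0.39 and -0.31 in DIO-LFD and DIO-VSG against DIO-HFD. Elovl6 was the paralog with the largest differences in the other direction too, 3.36 in DIO-LFD and 3.73 in DIO-VSG against DIO-HFD, although DIO-LFD replicate 1 and DIO-VSG replicate 1, at 1739 and 2147 normalized counts, lay within the DIO-HFD range of 832 to 2559.

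Because the common and the thermogenic isoform of a pair make the same protein complex or catalyse the same step, the share of the thermogenic one was computed per kilobase. Cox8b made up 24.9%, 49.6%, 19.4% and 18.3% of Cox8b plus Cox8a in CON-LFD replicates 1 to 4, and 3.86%, 4.45%, 5.70% and 9.66% in DIO-HFD. It made up 6.08%, 27.6%, 23.0% and 18.8% in DIO-LFD and 14.0%, 9.44%, 37.9% and 25.2% in DIO-VSG. The DIO-HFD shares lay below all CON-LFD shares and overlapped those of DIO-LFD and DIO-VSG in 1 library each. The mean share of Cpt1b in Cpt1b plus Cpt1a was 34.8% ± 29.0 (SD, n = 4) in CON-LFD, 9.36% ± 3.47 in DIO-HFD, 24.2% ± 9.62 in DIO-LFD and 29.1% ± 25.9 in DIO-VSG. Here all 4 DIO-LFD libraries, from 14.9% upwards, were above the highest DIO-HFD library, at 14.4%, but CON-LFD replicate 3, at 11.3%, and DIO-VSG replicates 1 and 2, at 10.6% and 7.44%, were within the DIO-HFD range. Cox7a1 took 13.9% ± 13.7 of Cox7a1 plus Cox7a2 in CON-LFD, 2.94% ± 0.91 in DIO-HFD, 7.10% ± 3.01 in DIO-LFD and 10.2% ± 8.75 in DIO-VSG. CON-LFD replicate 3, at 3.48%, and DIO-VSG replicates 1 and 2, at 3.15% and 3.47%, lay within the DIO-HFD range of 1.88% to 3.99%. The highest CON-LFD share was 33.8%, in replicate 2. These shares rest on the same counts as the levels above and are no separate test.

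**Figure D4:**
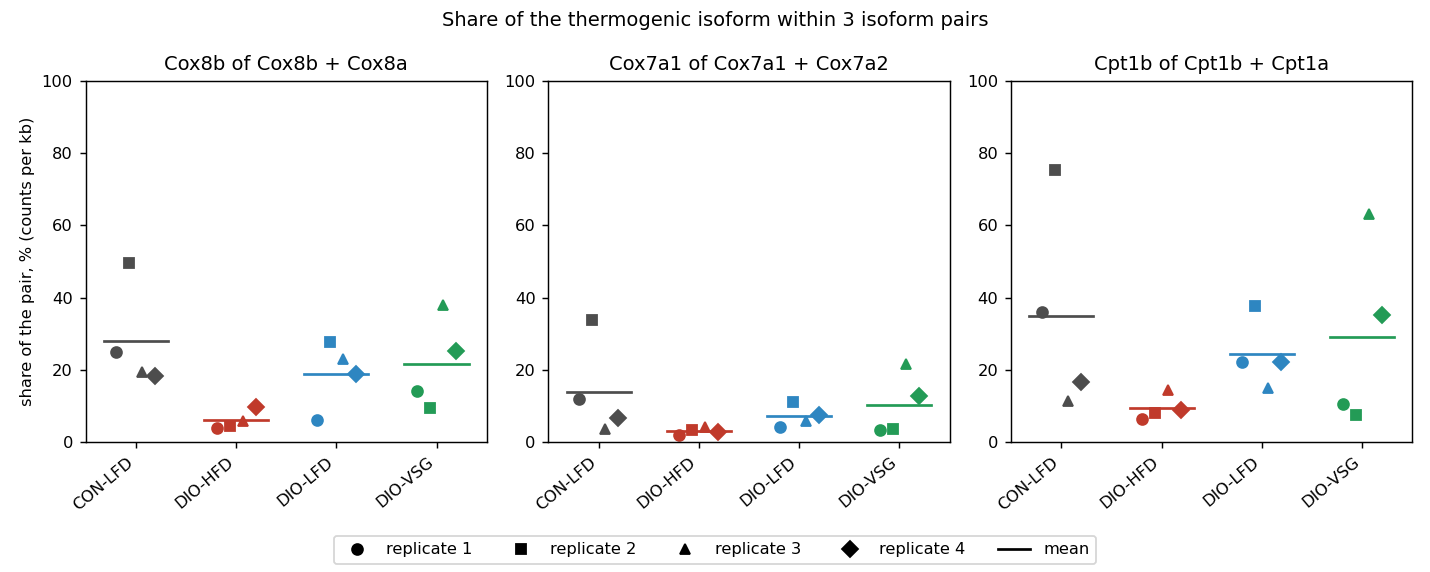
Share (%) of the thermogenic isoform in each pair, from normalized counts per kilobase, in every library; bars are means of 4. In CON-LFD replicate 2 Cpt1b reached 75.3% of its pair and Cox8b 49.6%, whereas no DIO-HFD library exceeded 14.4% or 9.66%.

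The wider pathway was read from 4 lists. Of 15 thermogenic effectors, all 15 were below 0 in DIO-HFD against CON-LFD, 7 at an unadjusted P below 0.05 and 0 at the adjusted threshold, with a median of -1.14. Of all genes 7.66% were lower at the first of these thresholds and 0.0377% passed the adjusted one. The effector score was 0.57, 2.12, -0.53 and -0.03 in CON-LFD replicates 1 to 4, against -1.31 to -0.46 in DIO-HFD. The size of the difference thus leaned on CON-LFD replicate 2. P2rx5, a purinergic receptor channel of brown fat, had 345, 416, 154 and 165 normalized counts in CON-LFD replicates 1 to 4 and 72.2, 66.4, 120.1 and 111 in DIO-HFD. It had 330, 346, 245 and 323 in DIO-LFD and 168, 184, 368 and 249.7 in DIO-VSG. DIO-HFD lay below all 12 other libraries, with a difference of -1.45 against CON-LFD (adjusted P = 0.167 by limma), 1.77 for DIO-LFD against DIO-HFD (adjusted P = 0.296) and 1.36 for DIO-VSG against DIO-HFD (adjusted P = 0.243). Pank1, a kinase of coenzyme A synthesis, differed by -1.96 against CON-LFD, and Pdk4, a kinase that restrains pyruvate oxidation and the effector with the highest level, by -1.02. CON-LFD replicate 2 had 44482.5 normalized counts of Pdk4, against 5452 to 10920 in replicates 1, 3 and 4. In DIO-LFD and DIO-VSG against DIO-HFD, 14 of 15 effectors were above 0, with medians of 1.00 and 0.89.

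Of 19 regulators, 16 were below 0 in DIO-HFD against CON-LFD and 7 were lower at an unadjusted P below 0.05 (7.66% of all genes), with a median of -0.51. Nrg4, a secreted growth factor of brown fat, had 6545, 8257, 3302 and 4615 normalized counts in CON-LFD replicates 1 to 4 and 1374, 2241, 1828 and 3215 in DIO-HFD, a difference of -1.38 (adjusted P = 0.167 by limma). The beta-adrenergic receptor genes Adrb1 and Adrb3 differed by -0.87 and -1.36, with Adrb3, the receptor of fat cells, at a mean of 5308 in DIO-HFD and 11485 in CON-LFD. In DIO-VSG against DIO-HFD 6 of 19 regulators were higher and 1 lower at an unadjusted P below 0.05, where 5.05% of all genes were higher and 8.12% lower. In DIO-LFD against DIO-HFD 2 of 19 were higher, against 5.37% of all genes.

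Markers of beige and brown cell identity did not share that direction: 7 of 9 tested were above 0 in DIO-HFD against CON-LFD, with a median of 0.18, and only Tnfrsf9, also made by activated T cells, passed an unadjusted P below 0.05, at 1.62 (5.23% of all genes were higher). Lhx8 differed by 0.53 and Ebf3, the marker with the highest level, by -0.26. Genes tied to heat without UCP1, those of calcium and creatine cycling and Pm20d1, whose enzyme makes N-acyl amino acids, had a median of -0.01. Of these, 0 of 9 passed an unadjusted P below 0.05 (7.66% of all genes were lower and 5.23% higher). The values were -0.01 for Atp2a2, 0.64 for Ryr2 and -1.12 for Pm20d1. In DIO-LFD against DIO-HFD, 6 of 9 identity markers and 4 of 9 genes of the UCP1-independent list were above 0, with medians of 0.04 and -0.02. In DIO-VSG against DIO-HFD, 4 of 9 and 1 of 9 were above 0, with medians of -0.17 and -0.35. In these comparisons 0 of either list passed an unadjusted P below 0.05. Of all genes 5.37% were higher and 3.16% lower in DIO-LFD, and 5.05% and 8.12% in DIO-VSG, each against DIO-HFD. For lists of 9 genes a count of 0 is near those shares. No list member outside the 10 genes passed the adjusted threshold in any of the 6 comparisons by limma.

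Cell type markers were read beside the members, since Cox8b, Cox7a1, Cpt1b and Fabp3 are also genes of skeletal muscle. The summed level of 24 muscle markers ranged from 4144 to 45260 normalized counts in CON-LFD, 2461 to 5143 in DIO-HFD, 2767 to 186614 in DIO-LFD and 2283 to 32439 in DIO-VSG, and in at least 1 library Ckmt2, Myot and Tcap were at 0 in DIO-HFD, Ckmt2 in DIO-LFD and Ckmt2 and Tcap in DIO-VSG. Of 22 muscle markers tested, 20 were below 0 in DIO-HFD against CON-LFD, with a median of -1.15, and 18 and 20 of 22 were above 0 in DIO-LFD and DIO-VSG against DIO-HFD, with medians of 1.07 and 1.45. The list median thus had the sign of the members in these 3 comparisons. These medians leaned on CON-LFD replicate 4, DIO-LFD replicate 4 and DIO-VSG replicate 2. In DIO-LFD replicates 1 to 3 the muscle score was -1.26, -1.16 and -0.41, against -1.42 to -0.80 in DIO-HFD. Across libraries, the muscle score was highest in DIO-LFD replicate 4, CON-LFD replicate 4 and DIO-VSG replicate 2, at 4.58, 3.11 and 2.73, where the member score was -0.10, 0.56 and -1.70. It was 0.09 in CON-LFD replicate 2 and -1.56 in DIO-VSG replicate 3, the libraries with the highest member scores, and DIO-VSG replicate 3 had the lowest muscle score of all. Single markers differed in order: in DIO-VSG replicate 3, Myh4, a fast muscle myosin, was at 76.0 normalized counts, above the 2.78 to 64.2 of DIO-HFD, Atp2a1, a calcium pump of muscle, was at 64.7, within 18.6 to 89.8, and Acta1, muscle actin, was at 133, below 547 to 2862. In CON-LFD replicate 2, Myh4 and Atp2a1, at 939 and 391, were above those ranges, and Acta1, at 2507, was within. The part of muscle in the members' levels was not tested.

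The adipocyte markers gave 16 of 18 below 0 in DIO-HFD against CON-LFD, with a median of -0.51, against medians of 0.40 and 0.02 in DIO-LFD and DIO-VSG against DIO-HFD, and summed levels of 1710310 to 3174280 normalized counts in CON-LFD and 942743 to 2984000 in DIO-HFD. The adipocyte score was -1.31, 0.06, 0.35 and -0.22 in DIO-HFD replicates 1 to 4, so these medians rest in part on replicate 1. The member score minus the adipocyte score was -1.88 to -1.03 in DIO-HFD, -0.49 to 2.93 in CON-LFD, -0.37 to 1.07 in DIO-LFD and -1.31 to 3.10 in DIO-VSG. The DIO-HFD values of this difference were below all of CON-LFD and DIO-LFD and overlapped DIO-VSG replicates 1 and 2. The part of adipocyte content in the members' levels was not tested.

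B cell markers (8 of 8 in the table, 0 at 0 reads) had summed levels of 258 to 64617 normalized counts in CON-LFD, 976 to 85937 in DIO-HFD, 15372 to 34998 in DIO-LFD and 59262 to 68812 in DIO-VSG, and the T cell score was also lowest in CON-LFD replicates 2 and 4 and DIO-HFD replicates 2 and 3. All 8 were above 0 in DIO-HFD against CON-LFD, with a median of 1.18, and in DIO-LFD and DIO-VSG against DIO-HFD, with medians of 1.55 and 2.80. B cell scores in replicates 1 to 4 were 0.11, -5.90, 1.98 and -4.03 in CON-LFD and 2.38, -2.48, -4.57 and 1.69 in DIO-HFD. The direction of the first difference therefore depends on single libraries. The B cell score was lowest in CON-LFD replicate 2, at -5.90, and highest in DIO-HFD replicate 1, at 2.38, the libraries with the highest and the lowest member score. In DIO-VSG it was between 1.85 and 2.08 in all 4 libraries while the member score spanned -1.70 to 2.96. Mammary epithelial markers were below 0 for 10 of 10 in DIO-HFD against CON-LFD, with a median of -0.80, 5 lower at an unadjusted P below 0.05 (7.66% of all genes) and summed levels of 37830 to 85204 against 66359 to 127421. They were above 0 for 10 of 10 in DIO-LFD against DIO-HFD, with a median of 0.89 and 7 at an unadjusted P below 0.05 (5.37% of all genes were higher), and for 10 of 10 in DIO-VSG against DIO-HFD, with a median of 0.43 and 2 at that threshold (5.05%). In DIO-HFD against CON-LFD, macrophage markers were above 0 for 9 of 12, with a median of 0.41, T cell markers for 10 of 10 (0.54), endothelial for 6 of 6 (0.33), stromal for 7 of 8 (0.11) and skin for 4 of 10 (-0.19). In DIO-LFD against DIO-HFD the counts above 0 were 3 of 12 for macrophage (-0.15), 9 of 10 for T cell (0.87), 1 of 6 for endothelial (-0.07), 1 of 8 for stromal (-0.27) and 4 of 10 for skin markers (-0.18). In DIO-VSG against DIO-HFD they were 1 of 12 for macrophage (-0.65), 10 of 10 for T cell (2.27), 0 of 6 for endothelial (-0.54), 2 of 8 for stromal (-0.70) and 5 of 10 for skin markers (-0.27), and 4 endothelial markers were lower at an unadjusted P below 0.05 (8.12% of all genes). The part of lymphocyte, macrophage, endothelial, stromal and epithelial content in the members' levels was not tested.

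**Figure D5:**
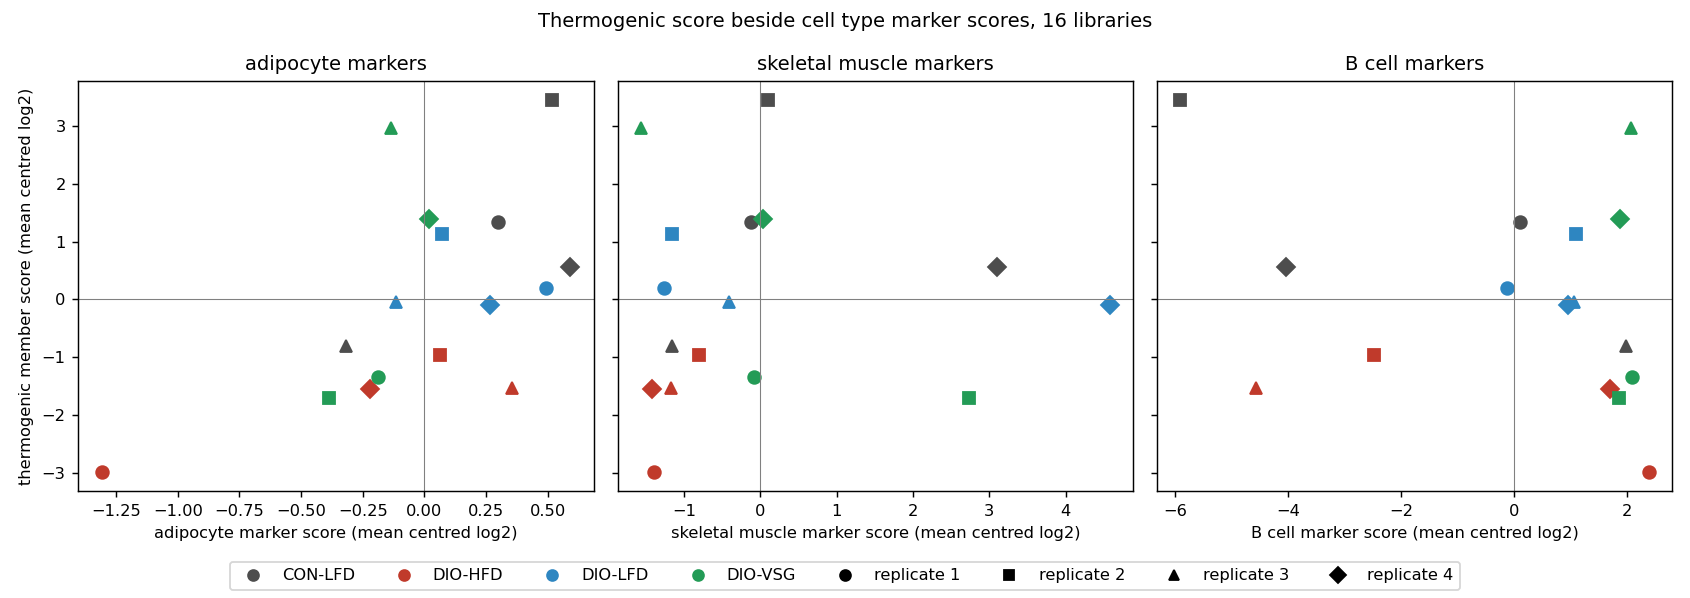
Score of the 10 thermogenic genes (vertical axis, mean centred log2 level) against the scores of adipocyte, skeletal muscle and B cell markers, 1 point per library, coloured by group and shaped by replicate. The 2 libraries with the highest thermogenic scores, at 3.45 and 2.96, have muscle scores of 0.09 and -1.56 and lie far apart on the B cell axis, at -5.90 and 2.06.

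Among the genes whose pattern was most like the member score, of 13063 with a mean of at least 100 normalized counts, were Hadha, Ddhd2, Sdha, Uqcrc2, Hadhb, Acadvl, Ndufa5, Sdhb and Lace1, with Pearson's r from 0.97 to 0.96 over the 16 libraries. Hadha, a subunit of the mitochondrial trifunctional protein, had 19676, 38626, 11261 and 14756 normalized counts in CON-LFD replicates 1 to 4 and 7801, 11084, 10953 and 9393 in DIO-HFD. It had 13506, 19411, 13413 and 14733 in DIO-LFD and 10515, 10659, 26926 and 16738 in DIO-VSG. CON-LFD replicate 2 and DIO-VSG replicate 3 were the highest, and DIO-HFD lay below all CON-LFD and DIO-LFD libraries. These genes were picked for likeness to the member score over the same 16 libraries. Their library order and the direction of their differences follow from that choice and are no separate support. The range of Hadha was far narrower than that of the members other than Ppargc1a and Prdm16. The difference of Hadha was -0.96 in DIO-HFD against CON-LFD (adjusted P = 0.278 by limma), and the others named lay between -0.58 for Ndufa5 and -1.06 for Acadvl, none past the adjusted threshold. With the group means taken out, r with the member score was between 0.93 and 0.96 for the genes named.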

How the data were processed

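Total RNA of the contralateral fat pad was sequenced from TruSeq stranded paired-end libraries, 16 in all, with groups taken from the sample labels. The labels also carry tags of the injected E0771 tumor line, which is not the tissue sampled. The deposited matrix was named normalized counts, but its values, between 5.36 and 21.85, are on a log2 scale: the authors had divided counts by DESeq2 size factors and applied a variance-stabilizing transformation. Sources differ on the steps before it. The methods give STAR and salmon, and the submitters' processing notes TopHat2 2.0.7, HTSeq 0.5.3p9 and mm10. How reads shared by similar genes or antisense partners were assigned is therefore unsure.

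The transformation was inverted, and multiplied by the size factors (0.9036 to 1.2204) the values came out whole to within 0.05 read in 100.0% of cases. All tests used limma 3.58.1 (trend, two-sided, R 4.3.3) on log2(normalized count + 1) fitted across all 16 libraries by group alone. A gene was tested where 4 or more libraries reached 10 normalized counts, which left 21218, and P values were adjusted by Benjamini-Hochberg. Limma-voom ran on the recovered reads as an alternative. Fold changes of low genes are understated by the added 1. Scripts were tested on simulated data. Python 3.11.15 with numpy 2.4.6, pandas 2.3.3, scipy 1.17.1 and matplotlib 3.10.9 was used. Replicates of a group had Pearson's r of 0.903 to 0.983. P values set a group difference against the spread between these libraries, pooled over the 4 groups.

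The genes named are all 10 members, all tested paralogs, in each wider list the 2 genes with the smallest unadjusted P in DIO-HFD against CON-LFD and the 1 with the highest level, from the marker lists genes with the 3 highest levels, genes among the 10 most like the member score and the nearest genes of each member, up to 3. Muscle markers at 0 are named besides. For 1 gene that this rule names the result is not reported here. The members and all gene lists were chosen with earlier results of these data known. The alternatives were another pseudocount, filter, scale, library weights, voom, a replicate block and leaving out libraries. Gene positions are those of GENCODE M21 on GRCm38, and start regions are those of RefSeq.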

Additional observations from a re-analysis of the deposited data

Results flagged for a closer look

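A single low library stood apart from the others of its group in 2 of 40 groups of 4 values, when the gap to the nearest library was set against the range of the group on the log2(normalized count + 1) scale (Dixon's test). Both were of Prdm16. On the linear scale of the normalized counts 10 of the 40 groups had a library that stood apart, high or low. In CON-LFD replicate 3 Prdm16 had 577.5 normalized counts, with a gap of 0.944 of the log2 range, and in DIO-HFD replicate 1 it had 413.6, with a gap of 0.923. Chance alone marks about 1 in 20 such groups.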

How the results depend on the processing

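Under 25 other settings the number of members past the adjusted threshold stayed at 0 in all 6 comparisons, except with array weights. Those gave 5 in DIO-HFD against CON-LFD, 1 in DIO-LFD against DIO-HFD and 4 in DIO-VSG against DIO-HFD. Of all genes 19.8%, 8.54% and 17.6% passed with them, in that order. The 10 differences kept their sign in all settings in DIO-HFD against CON-LFD and in DIO-LFD against DIO-HFD. Their sizes moved more. On the deposited scale, which compresses low levels, Fabp3 was -2.89, Elovl3 -1.89 and Dio2 -1.25 in the first, and Ucp1 was 2.75, Fabp3 1.28, Elovl3 1.25, Cox7a1 1.11 and Dio2 0.60 in the second, where the median was 1.18. With array weights Ppargc1a was -0.52 and 0.066 in these comparisons and Prdm16 0.12 in the second. In DIO-VSG against DIO-HFD only Prdm16 turned, to -0.037 with array weights and within -0.19 to 0.44 when 1 library was left out. In the 3 comparisons without DIO-HFD, settings were followed for Ucp1, Cidea, Cox8b and Fabp3. With 1 library left out, Cidea ran from -1.47 to 0.11 in DIO-LFD against CON-LFD and from -1.60 to 0.13 in DIO-VSG against CON-LFD, and in DIO-VSG against DIO-LFD Ucp1 ran from -1.80 to 1.67, Cidea from -0.80 to 0.75, Cox8b from -0.61 to 0.43 and Fabp3 from -1.28 to 1.24. Leaving out CON-LFD replicate 2 and DIO-VSG replicate 3 together, chosen after seeing the data, gave Cidea 0.11 in DIO-LFD against CON-LFD, and in DIO-VSG against DIO-LFD -0.80 for Cidea and -1.28 for Fabp3. Ucp1 in that last comparison was 0.020 with a pseudocount of 5, 0.48 on the deposited scale and 0.83 with array weights. The cause was not tested.

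With a replicate block 0 members passed, and the medians were -2.77, 2.13, 2.14, -0.72, -0.65 and 0.05 in the order of the report. Of 24 same-numbered pairs of libraries 9 had correlated deviations (r over 0.1, range -0.609 to 0.534). Pairs with different numbers ranged from -0.628 to 0.742, and 7 of 16 libraries correlated best with one of their own number. These values do not decide whether the numbers carry a pairing, and the numbers were read as names only. With 4 libraries a group and the spread of Ucp1, differences of several log2 units cannot be called.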

Other observations

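The nearest single genes to each member differed in kind. For Prdm16 they were Lipe, the hormone-sensitive lipase of all fat cells (Pearson's r = 0.93 over 16 libraries), Tusc5 (0.93) and Gprc5b (0.90). For Cox7a1 they were the oxidase subunit gene Cox7b (0.99) and Hadha (0.98), and for Cpt1b Hadhb (0.98) and Hadha (0.97). Ucp1 was nearest to other members, Cidea (0.95) and Fabp3 (0.95). The nearest gene of Ppargc1a was Ephx2 (0.89). The libraries share group differences, and these values are descriptions.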
